A study of Homo sapiens with 6 samples.

Results

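The respiratory chain of HCT116 cells was followed through 51 genes, of which 13 are encoded by the mitochondrial genome and 38 by the nucleus, out of 56632 genes in the deposited tables. Members were chosen by name and matched on their Ensembl identifiers, and the rule used no measured value. They comprised 7 mitochondrial and 19 nuclear genes of complex I, 4 nuclear genes of complex II, 1 mitochondrial and 6 nuclear genes of complex III, 3 mitochondrial and 9 nuclear genes of complex IV, and the 2 mitochondrial genes of complex V. All 51 had values and passed the filter on low counts.

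HCT116 is a human colorectal cancer cell line, and the study asked how the RNA-binding protein Matrin3 shapes its transcripts. Poly(A) RNA was sequenced from 3 siCTRL libraries, made from cells given an unrelated negative control siRNA, and from 3 siMatrin3 libraries, made from cells given a pool of siRNAs against Matrin3. Both groups were transfected 2 times, 72 hours apart, and per the labels harvested 48 hours after the last transfection, although the methods describe reseeding and a later harvest. Because all knockdown libraries came from 1 siRNA pool, loss of Matrin3 and other effects of that pool cannot be told apart.

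Libraries held 40808173 to 54185650 expected counts. MATR3, the targeted gene, stood at 186, 180 and 176 TPM in siCTRL and at 95.2, 112 and 111 TPM in siMatrin3, lower in every library labelled as knockdown. In counts its log2 fold change was -0.93 (SE 0.0647, edgeR adjusted p = 7.67e-05). With an offset for effective length it was -0.76, and in log2(TPM + 1) the difference was -0.77. Of 16786 genes tested, 1849 passed an adjusted p of 0.05. All 7 epithelial markers, EPCAM and KRT18 among them, were above 1 TPM on average, with a summed level of 3289 to 3450 TPM in siCTRL and 3023 to 3260 TPM in siMatrin3. KRT18, a keratin, was itself called lower (log2 fold change -0.15, SE 0.0384, adjusted p = 0.033), and its part in the results below was not tested. The 6 fibroblast markers summed to 13.7 to 16.2 TPM in siCTRL and 14.95 to 19.1 TPM in siMatrin3, nearly all of it COL1A1, and 3 of them were at 0 in every library. The 6 blood cell markers summed to 11.9 to 17.5 TPM in siCTRL and 12.99 to 18.9 TPM in siMatrin3, nearly all of it CD68, and 1 was at 0 in every library. The 3 endothelial markers analysed did not exceed 0.14 TPM in any library.

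The respiratory chain passes electrons from NADH and succinate through complexes I to IV to oxygen, pumps protons across the inner mitochondrial membrane, and so drives ATP synthesis by complex V. Except for complex II, each of these complexes is built from subunits of both genomes. Mitochondrial mRNAs are cut from long transcripts of both strands of the circular genome, and most are tailed inside the organelle. Nuclear subunits are transcribed singly, translated in the cytosol and imported, so the supply from both genomes has to be matched.

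Mitochondrial mRNAs far exceeded the nuclear ones in level. On the TPM scale, which divides by transcript length, the mean over 6 libraries ran from 5363 TPM (MT-ND5) to 56377 TPM (MT-ATP8), with a median of 21695 TPM over the 13 genes. The 38 nuclear members ran from 33.4 TPM (NDUFA2) to 581 TPM (COX4I1), with a median of 91.9 TPM. The least abundant mitochondrial mRNA was thus well above the most abundant nuclear one, and all 13 ranked among the 17 most abundant genes in the tables.

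Levels also differed within a complex. The 7 mitochondrial mRNAs of complex I spanned 4.57-fold in mean TPM, from MT-ND5 to MT-ND4L at 24535 TPM. The 19 nuclear subunits of complex I spanned 8.36-fold, up to NDUFB9 at 279 TPM. The 4 subunits of complex II lay within 1.42-fold, between 56.9 TPM (SDHD) and 80.6 TPM (SDHB). Nuclear subunits of complex III ran from 53.6 TPM (UQCRFS1) to 295 TPM (UQCRB), and those of complex IV from 44.7 TPM (NDUFA4) to COX4I1, a 13-fold span.

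**Figure D1:**
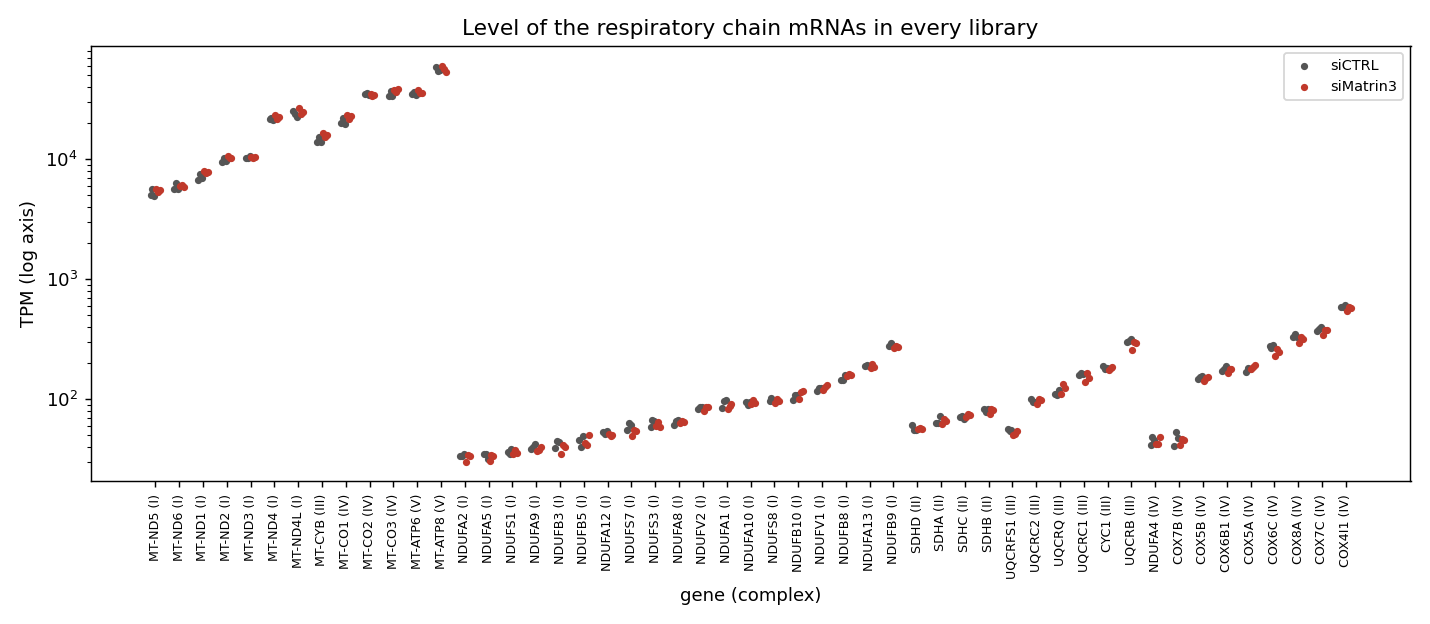
TPM (log axis) of the 51 members in the 3 siCTRL libraries (grey) and the 3 siMatrin3 libraries (red), grouped by genome and complex (in brackets). The 13 mitochondrial mRNAs on the left are at 4942 TPM or more in every library, the 38 nuclear mRNAs on the right reach at most 605 TPM, and the 2 colours lie close together for nearly every gene.

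After Matrin3 knockdown the mitochondrial mRNAs moved by little. MT-CYB, MT-CO1 and MT-ND1 were higher in siMatrin3, 3 of 13 members, and none was lower (edgeR quasi-likelihood test, Benjamini-Hochberg adjusted p under 0.05 over all genes). Over all genes tested, 5.05% were called higher and 5.97% lower. The median log2 fold change of the 13 was 0.10, against -0.00 over all genes, and the range was 0.00 (MT-CO2) to 0.17 (MT-CYB). All 13 estimates were above 0, against 8339 of 16786 genes tested, although that of MT-CO2 fell below 0 with upper quartile scaling. MT-CO2 kept its sign in 8 of 17 alternative analyses, MT-ATP8 in 14 and MT-ND3 in 15, and the other members in all 17. An unadjusted p under 0.05 was found for 6 of 13, against 4364 of 16786 genes. The scaled count of a gene (CPM) was higher in every siMatrin3 library than in any siCTRL library for 5 members, against 15.5% of all genes. The opposite order, seen for another 15.5% of all genes, held for none of the 13. On the TPM scale the groups of MT-ND1 and MT-CYB stayed apart, and those of MT-CO1, MT-ND2 and MT-ND4L overlapped.

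The calls of MT-CYB, MT-CO1 and MT-ND1 depended on the libraries used. Leaving out any single library except siCTRL replicate 2 left 0 of 13 members called, and leaving out siCTRL replicate 2 left 8. Calls over all genes fell too, from 1849 of 16786 to between 759 of 17237 and 1599 of 17149, the last without siCTRL replicate 2. Without siMatrin3 replicate 2 the log2 fold changes of the 3 genes were 0.19, 0.20 and 0.18. Each was above its estimate from all libraries, but none was called. Whether fewer cells of a kind or less RNA per cell lay behind any difference cannot be told apart in bulk RNA.

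Complex I oxidises NADH, and its 7 mitochondrial subunits form the proton-pumping arm in the membrane. MT-ND1, which lies where that arm meets the rest of the complex, stood at 4238, 4747 and 4386 CPM in siCTRL replicates 1 to 3 and 5110.4, 4861 and 4979 CPM in siMatrin3 replicates 1 to 3. The lowest siMatrin3 library exceeded the highest siCTRL library (log2 fold change 0.16, SE 0.0415, adjusted p = 0.0334). MT-ND2, an antiporter-like subunit of the arm, had 6638, 7193 and 6779 CPM in siCTRL and 7640.1, 7238 and 7301 CPM in siMatrin3. Its groups did not overlap either, but the gap between siCTRL replicate 2 and siMatrin3 replicate 2 was narrow and the gene missed the threshold (log2 fold change 0.11, SE 0.036, adjusted p = 0.0886). MT-ND4L, a small subunit of the same arm, had 2255, 2387 and 2206 CPM in siCTRL and 2539, 2399 and 2398 CPM in siMatrin3. The groups were again apart by a small margin, and the gene was not called (log2 fold change 0.10, SE 0.0385, adjusted p = 0.13).

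MT-ND5, another antiporter-like subunit, had 6727, 7455 and 6579.6 CPM in siCTRL and 7695, 7178 and 7367 CPM in siMatrin3. MT-ND4, the third such subunit, had 21145, 21426 and 20697 CPM in siCTRL and 22984, 21272 and 22058 CPM in siMatrin3. In both, siCTRL replicate 2 exceeded siMatrin3 replicate 2, so the groups overlapped (log2 fold changes 0.10 and 0.07, SE 0.0461 and 0.031, adjusted p = 0.204 and 0.198). MT-ND3 had 1293, 1402 and 1429.9 CPM in siCTRL and 1384, 1414 and 1419.8 CPM in siMatrin3, and siCTRL replicate 3 was the highest library (log2 fold change 0.03, SE 0.0402, adjusted p = 0.669). MT-ND6, the subunit transcribed from the strand opposite to that of the other 12, had 1525, 1764 and 1566 CPM in siCTRL and 1688, 1720.2 and 1654 CPM in siMatrin3. Its highest value was that of siCTRL replicate 2, and it was not called (log2 fold change 0.06, SE 0.0502, adjusted p = 0.5). Whether poly(A) capture reads MT-ND6 as fully as the other mRNAs was not tested. For every mitochondrial mRNA, whether a difference between the groups lay in its level or in its tailing was also not tested. The study's libraries depleted of ribosomal RNA were not used here.

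Cytochrome b, encoded by MT-CYB, is the mitochondrial subunit of complex III and carries the haem groups of its quinone cycle. MT-CYB had 10924, 11847 and 10862 CPM in siCTRL and 13052, 12187 and 12606 CPM in siMatrin3. The groups did not overlap, and it had the smallest adjusted p of the 51 members (log2 fold change 0.17, SE 0.0386, adjusted p = 0.0201).

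Complex IV, cytochrome c oxidase, passes electrons to oxygen, and its 3 mitochondrial subunits form the catalytic core. MT-CO1, which holds the oxygen-reducing centre, had 22274, 24235 and 21861 CPM in siCTRL and 26635, 24442 and 25632 CPM in siMatrin3. In CPM all siMatrin3 libraries exceeded all siCTRL libraries, siCTRL replicate 2 and siMatrin3 replicate 2 being the closest pair (log2 fold change 0.17, SE 0.0421, adjusted p = 0.0314). In TPM the groups of MT-CO1 overlapped, with 22050 TPM in siCTRL replicate 2 and 21830 TPM in siMatrin3 replicate 2. MT-CO2, which receives electrons from cytochrome c, had 13945, 14406 and 14031 CPM in siCTRL and 14482, 13814 and 14109 CPM in siMatrin3. Its libraries were interleaved, and the 95% interval of its log2 fold change was -0.06 to 0.06, below the estimates of MT-CO1 and MT-CYB. MT-CO3, the third core subunit, had 16185, 18223 and 16405 CPM in siCTRL and 18622, 17845 and 18818 CPM in siMatrin3, with siCTRL replicate 2 above siMatrin3 replicate 2 (log2 fold change 0.12, SE 0.043, adjusted p = 0.0999). Whether MT-CO1 and MT-CO2 differed from each other in their response was not tested.

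MT-ATP6, the proton channel subunit of complex V, had 13961, 14658 and 13968 CPM in siCTRL and 15327, 14673 and 14515 CPM in siMatrin3 (log2 fold change 0.06, SE 0.0309, adjusted p = 0.224). MT-ATP8, a short membrane subunit of the same complex, had 1869.7, 2133 and 2029.9 CPM in siCTRL and 2075, 2200.1 and 1929 CPM in siMatrin3. Both groups overlapped, and for MT-ATP8 the lowest siMatrin3 library lay below 2 of the siCTRL libraries (log2 fold change 0.04, SE 0.0556, adjusted p = 0.701).

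**Figure D2:**
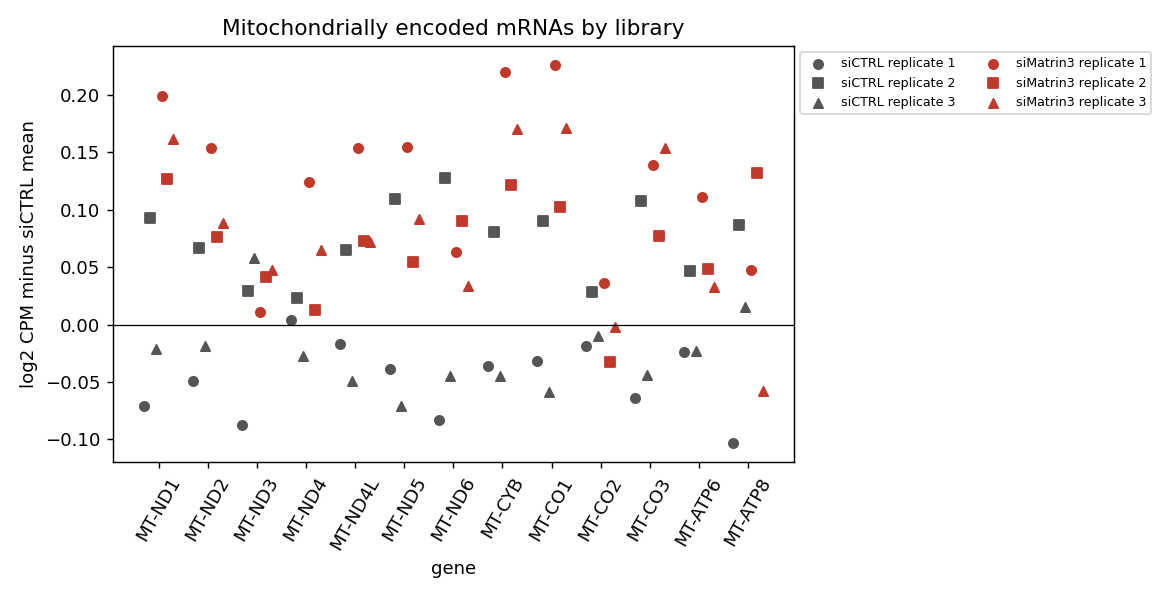
log2 CPM minus the mean of the 3 siCTRL libraries for each of the 13 mitochondrially encoded mRNAs, with siCTRL in grey, siMatrin3 in red and the marker shape giving the replicate. siMatrin3 replicate 1 is the highest library for 9 genes, siCTRL replicate 2 is the highest of the siCTRL libraries for all but MT-ND3, and for MT-CO2 the colours are mixed.

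Some of these genes share sequence. Reads that lie within a shared stretch match both genes, and expected counts divide them by estimate. The values of overlapping genes are therefore not fully separate. Members are counted here as genes, and whether overlapping genes lie on separate mRNA molecules was not tested. MT-ATP8 and MT-ATP6 overlap by 46 bases, 22.2% of the 207 bases of MT-ATP8, and MT-ND4L and MT-ND4 by 7 bases. The longer run is shown because it limits what the tables can say of MT-ATP8. It was found by matching the ends of the GENCODE transcripts and lies on the + strand of chrM:8527-8572 in GRCh38, where capitals mark the start codon of MT-ATP6.
MT-ATP8/MT-ATP6: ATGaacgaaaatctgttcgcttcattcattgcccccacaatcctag
MT-ATP6 and MT-CO3 also overlapped in that annotation, by the last base of the former. The length of MT-ATP8 also makes its TPM fragile, because the effective length by which RSEM divided was 44.1 bases on average, against 207 annotated, and for MT-ND4L it was 117 against 297. Its place at the head of the order of levels therefore rests on that length.

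Nuclear copies of mitochondrial genes are another source of shared reads. The annotated copies of MT-CO1 held 5.28% of the counts of gene and copies together, nearly all of them in MTCO1P12, with 383292 counts over the 6 libraries. For the other 12 mitochondrial members that share was at most 0.69%. With copies added to their genes, MT-CO1 had a log2 fold change of 0.17 (adjusted p = 0.0355), MT-CYB of 0.17 (adjusted p = 0.0199) and MT-ND1 of 0.16 (adjusted p = 0.0328). Among nuclear members SDHA shared most, with 17.4% of counts in its copies. In the GENCODE annotation 13 of the 38 nuclear members shared exon bases with another gene on the same strand, NDUFB8 and NDUFA13 among them, and 12 with a gene on the opposite strand, as UQCRQ with GDF9. Whether the authors' counting used strand is not given in the sources used here, so reads of such pairs may be divided between them.

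None of the 38 nuclear members was called in either direction by edgeR, against 5.05% and 5.97% of all genes tested. At an unadjusted p under 0.05 stood 5 of the 38, against 4364 of all 16786 genes tested. Of these 5 members, 4 had a positive estimate and 1 a negative one. DESeq2 called COX6C lower and no other nuclear member. Estimates were positive for 15 and negative for 23, against 8339 and 8447 of all genes tested. The median of the 38 was -0.02 and the range -0.15 (COX6C) to 0.18 (UQCRQ). CPM was higher in every siMatrin3 library for 3 members and lower for 2, against 15.5% of all genes each, and overlapped for 33. In TPM the 3 higher ones, NDUFA4, SDHC and COX5A, overlapped. The 2 lower ones, NDUFA12 and COX6C, stayed apart in TPM, and NDUFS7 was also lower in every siMatrin3 library on that scale. The median half-width of the 95% interval was 0.108 on the log2 scale, without adjustment for the number of genes tested. Adjusted over all genes, estimates as large as that of UQCRQ were not called.

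In complex I the nuclear subunits carry the flavin and iron-sulphur clusters that take electrons from NADH, together with many accessory subunits. NDUFB9, an accessory subunit and the most abundant of them, had 117, 127 and 123 CPM in siCTRL and 118, 122 and 118 CPM in siMatrin3 (log2 fold change -0.04, SE 0.0433, adjusted p = 0.638). NDUFS7, which holds the last iron-sulphur cluster before the quinone, had the largest estimate of the 19, with 36.6, 40.6 and 38.9 CPM in siCTRL and 33.1, 37.3 and 36.6 CPM in siMatrin3. Its siMatrin3 replicate 1 was the lowest library and the groups overlapped (log2 fold change -0.12, SE 0.0551, adjusted p = 0.206). NDUFB8, an accessory subunit often used as a marker of assembled complex I, had 56.6, 58.1 and 63.5 CPM in siCTRL and 62.5, 65.9 and 64.3 CPM in siMatrin3 and was the only one of the 19 with an unadjusted p under 0.05, with overlapping groups (log2 fold change 0.11, SE 0.0508, adjusted p = 0.19). NDUFA12, an accessory subunit, was lower in every siMatrin3 library, at 18.3, 18.5 and 19.6 CPM in siCTRL and 18.01, 17.9 and 18.02 CPM in siMatrin3, by less than could be called (log2 fold change -0.06, SE 0.0516, adjusted p = 0.491).

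The catalytic subunits NDUFV1, NDUFV2, NDUFS1, NDUFS3 and NDUFS8 had log2 fold changes of 0.04, 0.01, -0.04, -0.05 and -0.00. The accessory subunits NDUFA1, NDUFA2, NDUFA5, NDUFA9 and NDUFB3 had negative estimates, of -0.07, -0.02, -0.03, -0.03 and -0.11. Positive estimates belonged to NDUFA8 (0.02), NDUFA10 (0.02), NDUFA13 (0.01), NDUFB5 (0.03) and NDUFB10 (0.08). None of these 15 reached an unadjusted p of 0.05, and their groups overlapped.

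Complex II, succinate dehydrogenase, also belongs to the citric acid cycle and has no mitochondrial subunit. SDHB, its iron-sulphur subunit, had 62.5, 59.2 and 63.00 CPM in siCTRL and 58.9, 62.97 and 62.4 CPM in siMatrin3, and its libraries were interleaved (log2 fold change -0.00, SE 0.0455, adjusted p = 0.966). SDHC, which anchors the complex in the membrane, had 57.6, 60.01 and 57.3 CPM in siCTRL and 60.5, 64.8 and 63.1 CPM in siMatrin3, and all siMatrin3 libraries exceeded all siCTRL libraries by a small margin without passing the threshold (log2 fold change 0.11, SE 0.0433, adjusted p = 0.146). The flavin subunit SDHA and the second anchor SDHD had log2 fold changes of -0.02 and 0.02 with overlapping groups.

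In complex III, UQCRB, a small subunit near the quinone site and the most abundant of the nuclear ones, had 169.8, 165 and 174 CPM in siCTRL and 147, 166 and 165 CPM in siMatrin3. The lowest library was siMatrin3 replicate 1, and the other siMatrin3 libraries lay within the siCTRL range (log2 fold change -0.09, SE 0.0527, adjusted p = 0.333). UQCRQ, another small subunit, had the largest estimate of all nuclear members, with 35.7, 36.2 and 39.7 CPM in siCTRL and 38.4, 45.7 and 42.8 CPM in siMatrin3. Its siMatrin3 replicate 1 fell below siCTRL replicate 3, and it was called only when that library or both libraries numbered 1 were left out, under no filter on counts or with the replicate number in the fit (log2 fold change 0.18, SE 0.0644, adjusted p = 0.0996). The core subunits UQCRC1 and UQCRC2 had log2 fold changes of -0.10 and -0.02, the Rieske iron-sulphur subunit UQCRFS1 of -0.07 and cytochrome c1, encoded by CYC1, of 0.01, all with overlapping groups.

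In complex IV, COX4I1, a regulatory subunit and the most abundant nuclear member, had 255, 258 and 267 CPM in siCTRL and 242, 263 and 258 CPM in siMatrin3 (log2 fold change -0.03, SE 0.0423, adjusted p = 0.679). COX6C, a small subunit, had the most negative estimate of the 51 members, at 82.8, 81.6 and 86.7 CPM in siCTRL and 70.8, 79.4 and 75.9 CPM in siMatrin3. Each knockdown library was under each control library (log2 fold change -0.15, SE 0.0516, adjusted p = 0.0882). NDUFA4, once counted in complex I and now placed in complex IV, had 52.5, 50.4 and 51.9 CPM in siCTRL and 53.4, 58.8 and 58.3 CPM in siMatrin3, apart in every library (log2 fold change 0.14, SE 0.0463, adjusted p = 0.0837). It was singled out after its values were seen, because on the TPM scale it stood at 41.6, 48.4 and 45.5 TPM in siCTRL and 42.1, 42.6 and 48.03 TPM in siMatrin3 with overlapping groups.

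That difference between scales went with its transcript length, which RSEM averages over the isoforms of a gene and which for NDUFA4 was 1728, 1469 and 1577 bases in siCTRL and 1708, 1859 and 1657 bases in siMatrin3. COX5A, another nuclear subunit of complex IV, was higher in every siMatrin3 library, at 58.5, 61.8 and 61.5 CPM in siCTRL and 62.95, 64.4 and 67.3 CPM in siMatrin3 (log2 fold change 0.10, SE 0.0445, adjusted p = 0.192). COX5B, COX6B1, COX7B, COX7C and COX8A had log2 fold changes of -0.02, -0.03, 0.04, -0.04 and -0.07, with overlapping groups.

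**Figure D3:**
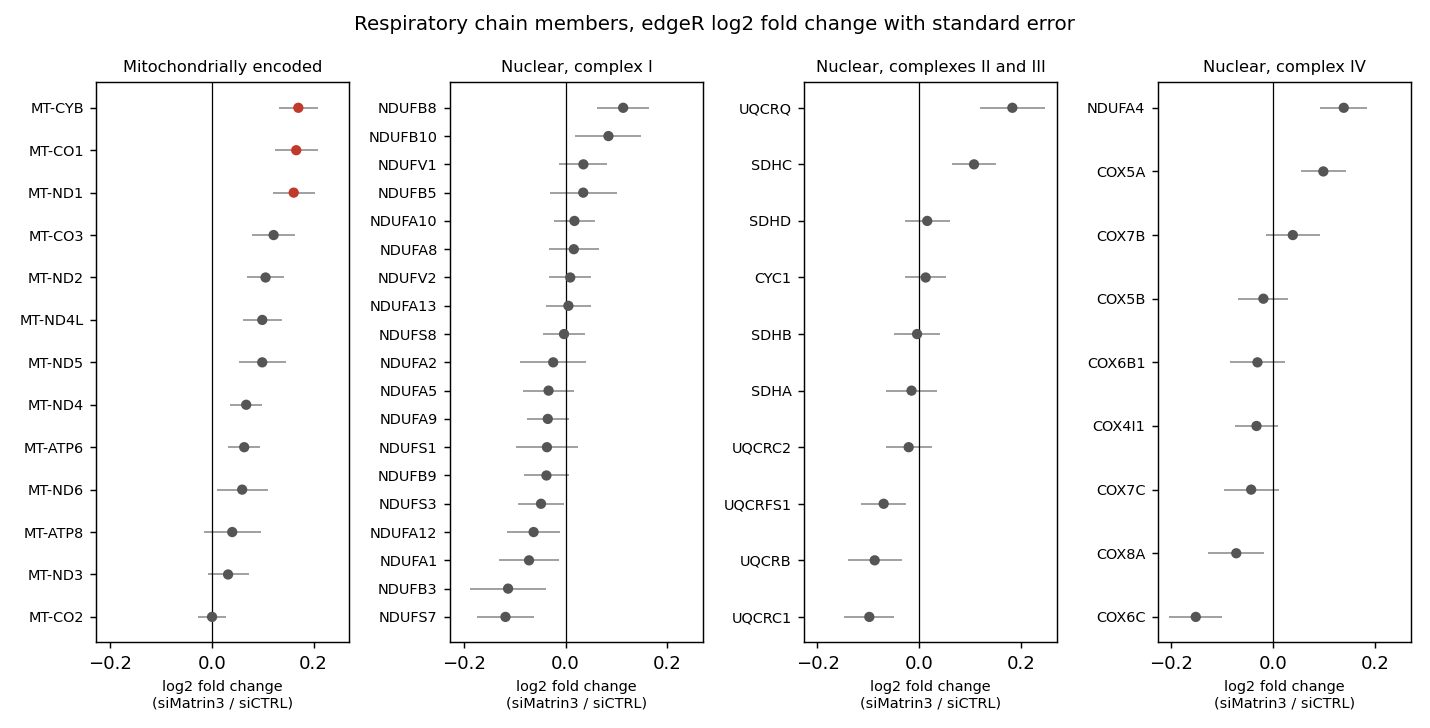
edgeR log2 fold change (siMatrin3 over siCTRL, 3 libraries each) of the 51 members, with bars of 1 standard error and members past an adjusted p of 0.05 in red. The 3 red points, MT-CYB, MT-CO1 and MT-ND1, are at 0.16 to 0.17, while nuclear members lie on both sides of 0 between -0.15 and 0.18.

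Set against each other within a complex, mitochondrial mRNA made up more of the total in siMatrin3 on average, but the groups overlapped in each complex. In complex I the summed TPM of mitochondrial members was 51.1, 50.3 and 47.1 times that of nuclear members in siCTRL and 56.6, 49.7 and 51.5 times in siMatrin3. In complex III the ratio was 15.4, 16.8 and 14.9 in siCTRL and 19.9, 16.5 and 17.6 in siMatrin3. In complex IV it was 41.3, 43.1 and 39.2 in siCTRL and 48.8, 42.2 and 44.6 in siMatrin3. The mean differences in log2 ratio were 0.09, 0.19 and 0.13, with SDs of 0.06 to 0.09 in siCTRL and 0.10 to 0.14 in siMatrin3. siMatrin3 replicate 2 lay within the siCTRL range in each complex, replicate 3 just above it, and replicate 1 had the highest ratio throughout. With the median over members in place of the sum, complex IV had a difference of -0.02.

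**Figure D4:**
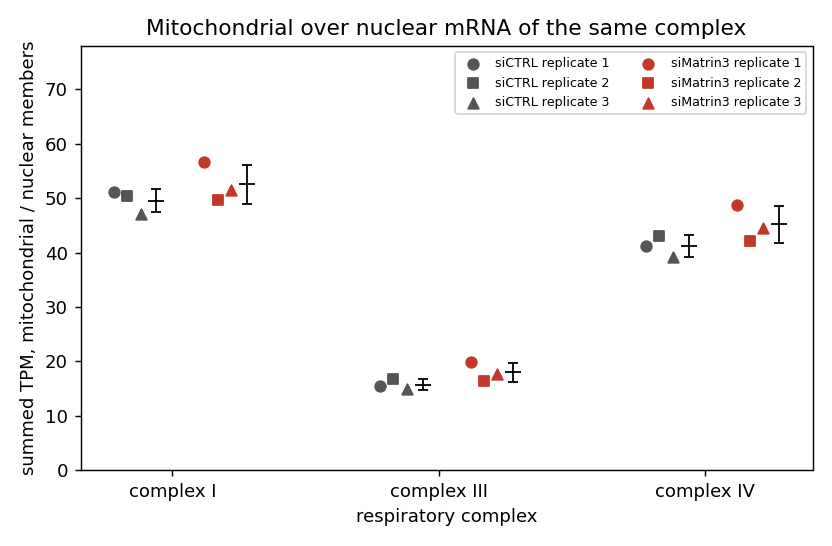
Summed TPM of the mitochondrial members over summed TPM of the nuclear members of the same complex, in each library, with group mean and SD (n = 3) as black bars. siMatrin3 replicate 1 (red circle) is highest in every complex, at 56.6, 19.9 and 48.8, and siMatrin3 replicate 2 (red square) lies within the siCTRL range in every complex.

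That library stood apart in both sets. Among the 6 libraries siMatrin3 replicate 1 had the lowest CPM for 22 of 38 nuclear members and the highest for 9 of 13 mitochondrial members. Its mean log2 CPM, set against the siCTRL mean, was 0.126 over the 13 and -0.0774 over the 38. The other siMatrin3 libraries stood at 0.0711 and 0.0791 over the 13 and at 0.0374 and 0.0151 over the 38, and siCTRL replicates 1 to 3 at -0.0475, 0.0734 and -0.0259 over the 13. Without both libraries numbered 1, the median log2 fold change of the 13 was 0.04, 10 of them were positive, and none was called. siMatrin3 replicate 1 was also the deepest library, and the part of depth in its values was not tested.

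**Figure D5:**
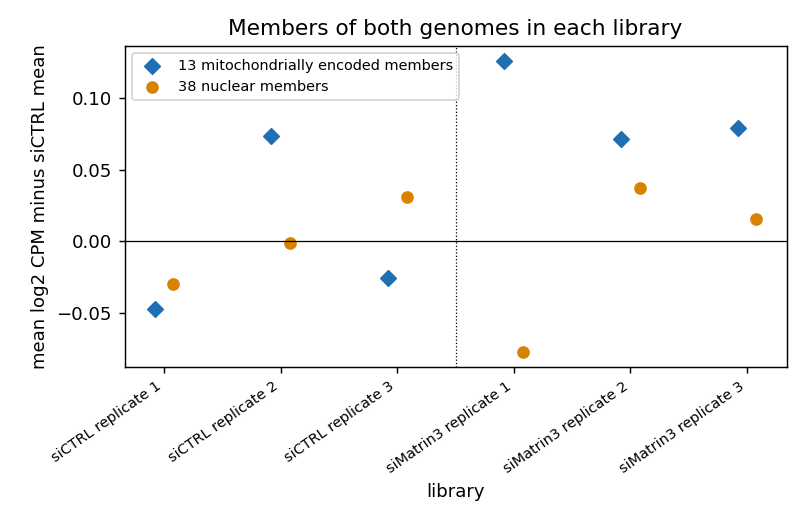
Mean log2 CPM minus the siCTRL mean over the 13 mitochondrially encoded members (blue diamonds) and the 38 nuclear members (orange circles), by library, with a dotted line between the groups. The 2 sets lie 0.204 apart in siMatrin3 replicate 1 and 0.0745 or less apart in either direction in the other libraries.

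As a share of all expected counts, the 13 mitochondrial members took 12.3%, 13.4% and 12.3% in siCTRL and 13.7%, 13.1% and 13.4% in siMatrin3, a mean difference of 0.741 percentage points. siCTRL replicate 2 exceeded siMatrin3 replicate 2 and came close to replicate 3, so the groups overlapped. The 38 nuclear members together took 0.265% to 0.292%. The difference was 1.11 points without siCTRL replicate 2 and 0.544 points without siCTRL replicate 1.

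Many nuclear genes of the chain are known targets of NRF1, GABP (an ETS factor) and YY1, and their promoters share short motifs. Of the 38 nuclear members, 31 had a promoter of 300 bases in the RefSeq table (GRCh38.p14, 250 bases before to 50 after the start). The NRF1 core CGCATGCG was found on either strand in 3 of the 31 (9.68%), against 2.19% of 27305 promoters. The ETS core CCGGAAGT was in 6 (19.4%), against 4.44% of all, and the YY1 core AAGATGGC in 4 (12.9%), against 3.03% of all. Wholly within the 250 bases before the start, the YY1 core was in 0 members, against 1.37% of all promoters. The 27305 promoters were not limited to genes expressed in these cells. At least 1 of these motifs was in 11 members (35.5%), against 9.01% of all, and none of the motifs is contained in another. The NRF1 core reads the same on both strands.

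The windows below show a member of each complex with a match upstream of its start, on the strand of the gene, with the motif on either strand in capitals. NDUFS7 carries the NRF1 core, SDHD has that core and the ETS core a short way downstream, and UQCRQ and COX5B carry the ETS core.
NDUFS7, chr19:1383813-1383860, + strand: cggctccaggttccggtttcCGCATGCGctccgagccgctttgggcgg
SDHD, chr11:112086744-112086791, + strand: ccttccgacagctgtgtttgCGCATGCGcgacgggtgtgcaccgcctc
SDHD, chr11:112086775-112086822, + strand: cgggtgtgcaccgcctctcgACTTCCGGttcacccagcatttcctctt
UQCRQ, chr5:132866568-132866615, + strand: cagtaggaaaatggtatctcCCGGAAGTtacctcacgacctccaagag
COX5B, chr2:97646005-97646052, + strand: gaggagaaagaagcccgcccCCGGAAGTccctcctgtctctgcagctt
Their mRNAs had estimates of both signs. NDUFS7 had a log2 fold change of -0.12, UQCRQ of 0.18, SDHD of 0.02 and COX5B of -0.02, none past the threshold. A match describes the letters of a window and is no evidence of binding in these cells.

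Matrin3 is known to act on splicing, so the mix of isoforms of each member was compared through the abundance-weighted transcript length. Of 12152 genes with at least 2 annotated transcripts and 50 counts in every library, limma called 0% longer and 1 gene, 0.00823%, shorter at an adjusted p of 0.05, and 768 had an unadjusted p under 0.05. Of the 35 nuclear members tested, none was called and 2 had an unadjusted p under 0.05. Because only 1 of 12152 genes was called at all, the lack of a call does not show an unchanged mix of isoforms. A change between isoforms of like length would not be seen by this measure. The paper used rMATS on its poly(A) reads and reported mainly exon inclusion after knockdown, and splicing events were not counted here. SDHC averaged 1185, 1201 and 1204 bases in siCTRL and 1214, 1224 and 1218 bases in siMatrin3, a shift of 0.03 on the log2 scale (unadjusted p = 0.0349 by limma, adjusted p = 0.748). NDUFV1 averaged 1385, 1348 and 1365 bases in siCTRL and 1330.0, 1344 and 1334 bases in siMatrin3 (unadjusted p = 0.0489 by limma, adjusted p = 0.788). UQCRQ averaged 589, 591 and 593 bases in siCTRL and 607, 595 and 604 bases in siMatrin3 (unadjusted p = 0.0528 by limma, adjusted p = 0.795). These shifts were small, and for NDUFV1 the siMatrin3 libraries were the shorter ones.

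The remaining nuclear subunits of these complexes are set beside the 5.05% of all genes called higher and the 5.97% called lower. Of 18 further complex I subunits 1 was called, NDUFS4, a subunit that stabilises the NADH-oxidising part, and it was lower, at 35.4, 32.9 and 34.1 CPM in siCTRL and 28.5, 30.8 and 27.2 CPM in siMatrin3 (log2 fold change -0.25, SE 0.0527, adjusted p = 0.0163). None of 3 further subunits of complex III and none of 2 of complex IV was called, with 0 at an unadjusted p under 0.05 in both. Of the 18 nuclear subunits of complex V 1 was higher, ATP5MK, a small membrane subunit tied to dimers of the complex, at 35.02, 36.8 and 36.5 CPM in siCTRL and 39.2, 42.9 and 41.5 CPM in siMatrin3 (log2 fold change 0.19, SE 0.0447, adjusted p = 0.0234). ATP5MK shares exon bases with MIR1307 on its strand. The 4 lists had medians of 0.00, 0.03, 0.02 and 0.03, against -0.00 over all genes.

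Assembly factors build the complexes but are not part of them. Of 49 tested, 6 were higher and 3 lower, against 5.05% and 5.97% of all genes, with a median log2 fold change of 0.04. UQCC1, which helps to make cytochrome b and so acts on the product of MT-CYB, was lower at 40.9, 39.2 and 38.5 CPM in siCTRL and 32.1, 31.8 and 31.4 CPM in siMatrin3 (log2 fold change -0.31, SE 0.0399, adjusted p = 0.00138), and remained called in all 17 alternatives. ACAD9, a complex I assembly factor, was lower at 37.3, 41.2 and 37.96 CPM in siCTRL and 32.1, 31.8 and 33.9 CPM in siMatrin3 (log2 fold change -0.25, SE 0.0487, adjusted p = 0.011). LYRM7, which guides the Rieske subunit of complex III, was higher at 26.2, 28.03 and 26.8 CPM in siCTRL and 31.3, 31.5 and 30.9 CPM in siMatrin3 (log2 fold change 0.21, SE 0.0425, adjusted p = 0.0129). With an offset for effective length its log2 fold change was 0.12 and in log2(TPM + 1) the difference was 0.08, neither past the threshold. In all of these the groups did not overlap. COX15 and HIGD1A share exon bases with another annotated gene on their strand. The other 6 calls were HIGD1A, COX15, COA7, TMEM126B and BCS1L, which were higher, and HIGD2A, which was lower. Their calls were lost without siCTRL replicate 3 for HIGD1A, without that library or siMatrin3 replicate 2 for COX15, without any of 4 libraries for COA7 and HIGD2A, and without any of 5 for TMEM126B and BCS1L. TMEM126B was called in 4 of 17 alternatives and BCS1L in 3, and the log2 fold change of BCS1L, 0.17, was 0.09 with the length offset.

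Among genes that act on mitochondrial DNA and RNA, every call was in the higher direction, against 5.05% of all genes called higher and 5.97% lower. Of 15 that transcribe, replicate or package mitochondrial DNA, 2 were higher and none lower, with a median of 0.09. TFB2M, which opens the mitochondrial promoters with the polymerase, had 20.2, 20.2 and 20.9 CPM in siCTRL and 23.3, 23.4 and 23.3 CPM in siMatrin3 (log2 fold change 0.19, SE 0.0446, adjusted p = 0.0229). TWNK, the replicative helicase, had 78.1, 78.4 and 76.7 CPM in siCTRL and 85.4, 87.7 and 89.9 CPM in siMatrin3 (log2 fold change 0.17, SE 0.0415, adjusted p = 0.0249). Both were higher in every siMatrin3 library.

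Of 26 genes for processing and stability of mitochondrial RNA, 5 were higher and none lower, with a median of 0.10. MTERF3, a repressor of mitochondrial transcription, had 15.4, 16.2 and 15.8 CPM in siCTRL and 19.4, 18.6 and 18.3 CPM in siMatrin3 (log2 fold change 0.25, SE 0.0535, adjusted p = 0.0153). FASTKD2, which binds mitochondrial RNA, had 31.3, 30.6 and 33.03 CPM in siCTRL and 38.5, 35.7 and 35.5 CPM in siMatrin3 (log2 fold change 0.21, SE 0.048, adjusted p = 0.0213). PNPT1, a subunit of the enzyme that degrades mitochondrial RNA, had 36.8, 38.1 and 36.2 CPM in siCTRL and 43.7, 41.7 and 40.5 CPM in siMatrin3 (log2 fold change 0.18, SE 0.0423, adjusted p = 0.0221). The list thus held genes of opposed known action among those that were higher. The other 2 were PRORP, the nuclease of mitochondrial RNase P, and LRPPRC, which stabilises mitochondrial mRNAs and was named after its values were seen, at 364, 347 and 359 CPM in siCTRL and 384, 395 and 398 CPM in siMatrin3 (log2 fold change 0.14, SE 0.0361, adjusted p = 0.0366). LRPPRC kept its call in 7 of 17 alternatives and PRORP, which shares exon bases with another annotated gene on its strand, in 4. With the effective length offset their log2 fold changes were 0.09 and 0.10, and in log2(TPM + 1) the differences were 0.07 for both, against 0.14 and 0.20 in counts.

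Of 11 tested nuclear regulators of respiratory genes, 2 were higher and none lower, against 5.05% and 5.97% of all genes, with a median of 0.02. MYC, a transcription factor with many mitochondrial targets, had 569, 538 and 581 CPM in siCTRL and 659.8, 689 and 689.6 CPM in siMatrin3 (log2 fold change 0.27, SE 0.0396, adjusted p = 0.00271) and was called in all 17 alternatives. PPRC1, a coactivator related to PGC-1, had 156, 149.5 and 152 CPM in siCTRL and 174, 171 and 174 CPM in siMatrin3 (log2 fold change 0.18, SE 0.038, adjusted p = 0.0147). Both groups were apart in every library.

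Among the other called genes of these lists, UQCC1, ACAD9 and MYC kept their call with any single library left out. The calls of NDUFS4 and PPRC1 were lost without siCTRL replicate 3 or siMatrin3 replicate 3, that of LYRM7 without siCTRL replicate 3 or siMatrin3 replicate 2, that of MTERF3 without siCTRL replicate 3 or siMatrin3 replicate 1, and that of TWNK without siCTRL replicate 3 or siMatrin3 replicate 2 or 3. ATP5MK, TFB2M, FASTKD2, PNPT1, LRPPRC and PRORP each lost theirs without any of 4 to 6 libraries, with adjusted p reaching 0.0658 (FASTKD2) to 0.128 (LRPPRC). All of these genes kept the direction of their estimate in the 17 alternatives.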

How the data were processed

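Poly(A) RNA of HCT116 cells was measured in 3 siCTRL and 3 siMatrin3 libraries, grouped by their labels. The methods name a stranded mRNA kit and biological triplicates, and p-values measure the spread between these libraries. Reads were trimmed with cutadapt and aligned by the authors to hg19 with STAR, and gene levels were estimated with RSEM, whose annotation release is not given in the sources used here. The submitters' processing notes give STAR 2.5.1, and the methods another version. The authors deposited expected counts, which divide shared reads among genes, for each of 56632 genes, and TPM, which the authors scaled by effective length to a fixed total. The deposited tables also hold a weighted transcript length and an effective length, in bases. The deposited FPKM values were not used. Libraries held 40808173 to 54185650 expected counts.

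After rounding, low counts were removed by filterByExpr, libraries were scaled with TMM, and groups were compared by the quasi-likelihood test of edgeR 4.0.16 in R 4.3.3 (two-sided, no covariates), with Benjamini-Hochberg adjustment over 16786 genes and a threshold of 0.05. The study used DESeq2, which was run here as an alternative (version 1.42.0). Weighted length was tested with limma 3.58.1 on log2 length. The edgeR and limma steps were tested on simulated data. Members and gene lists were chosen with earlier results of these data known. Every member is accounted for. Values in each library are given for the mitochondrial members, for the most abundant and most changed nuclear member of each complex, and for up to 3 genes per list with the smallest p where these passed the threshold. Other nuclear members with values were chosen after seeing them. Lists were described by counts and medians, without a test. Overlaps and shared ends came from GENCODE release 44 and promoters from RefSeq, both on GRCh38, and no coordinate was read from the tables' build.

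Alternatives covered scaling, count filters, effective length, DESeq2, TPM tested by limma after log2 with a pseudocount of 1 or 0.1, copies in the nucleus, each library left out, both libraries numbered 1 left out, and the replicate number as a term. SCO2, MRM1, MRPL45, MRPS21, TIMM23 and PECAM1 were not analysed here.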

Additional observations from a re-analysis of the deposited data

How the results depend on the processing

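MATR3 kept its call in every alternative run, and the median of the 13 mitochondrial members stayed above 0, from 0.04 to 0.13. That of the nuclear members was above 0 (0.01) without siCTRL replicate 3 or siMatrin3 replicate 1. The count of mitochondrial members called higher was 3 and became 1 with upper quartile scaling, with a filter of 1 CPM in 3 libraries or with the effective length offset, 7 with no filter, 0 to 8 with 1 library left out, and 0 without both libraries numbered 1, with limma at either pseudocount or at an adjusted p of 0.01. Nuclear members called higher, 0 before, numbered 1 with no filter, 0 to 2 with 1 library left out and 2 without both libraries numbered 1, and those called lower numbered 1 with no filter and 1 with DESeq2. By the median over members the log2 ratio difference of complex IV was -0.0204 and not 0.132. Without siMatrin3 replicate 1 the differences by sums were 0.03, 0.12 and 0.08 in complexes I, III and IV. Single genes near 0 changed sign. MT-CO2 went to -0.0177 with upper quartile scaling, -0.00683 with the filter of 1 CPM, -0.00216 with the length offset, -0.0204 with limma at either pseudocount, -0.0328 without both libraries numbered 1 and -0.0208 to 0.016 with 1 library left out. Without both libraries numbered 1, MT-ND3 went to -0.00533, MT-ATP8 to -0.0184 and SDHB to 0.0303, and with 1 library left out they ranged from -0.00961 to 0.0612, -0.00894 to 0.0916 and -0.0317 to 0.0219. NDUFA4 went to -0.0114 with the length offset and to -0.0295 and -0.0301 with limma at pseudocounts of 1 and 0.1. The causes were not tested.

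The replicate numbers are shared by the groups, and same-numbered libraries had correlations of deviations of 0.177, 0.0896 and 7.21e-05. Those of replicates 1 and 2 were the highest of any pairing, but replicate 3 of each group correlated best with replicate 2 of the other. The main fit took no libraries as pairs, and these values do not settle whether they were paired. With the replicate block 3 mitochondrial members were called higher, 1 nuclear member was called higher (UQCRQ) and 1 lower (COX6C), and over all genes 2716 were called against 1849. Over all genes, calls numbered 2595 with no filter, 706 with the length offset, 437 and 429 with limma, and 759 to 1599 with 1 library left out. With 3 libraries per group, members with log2 differences as large as 0.18 (UQCRQ) were not called after adjustment over all genes, and the called members were at 0.16 to 0.17.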

Other observations

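Mitochondrial ribosomal proteins, which translate the 13 mitochondrial mRNAs, were tested for 76 genes. Of these, 3 were higher in siMatrin3 (3 libraries per group, edgeR adjusted p under 0.05) and none lower, against 5.05% and 5.97% of all genes, and the median log2 fold change was 0.04. MRPL19, a protein of the large subunit, had 38.9, 34.01 and 35.03 CPM in siCTRL and 51.3, 47.8 and 49.7 CPM in siMatrin3 (log2 fold change 0.46, SE 0.0533, adjusted p = 0.000871), and it kept its call with any single library left out. On the TPM scale the difference of MRPL19 was 0.14 in log2(TPM + 1), and with an offset for effective length it was 0.17, against 0.46 in counts. MRPL19 also shares exon bases with another annotated gene on its strand and with GCFC2 on the opposite strand. MRPL50 of the large subunit had 21.9, 20.8 and 21.9 CPM in siCTRL and 24.7, 24.7 and 25.4 CPM in siMatrin3 (log2 fold change 0.21, SE 0.045, adjusted p = 0.0159) and lost its call without siCTRL replicate 3 or siMatrin3 replicate 3. MRPS15 of the small subunit had 36.04, 35.7 and 36.4 CPM in siCTRL and 40.9, 39.4 and 39.3 CPM in siMatrin3 (log2 fold change 0.15, SE 0.0373, adjusted p = 0.032) and lost its call without any of the 6 libraries.

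The ribosomal RNAs of the mitochondrion, which are little or only briefly adenylated, were also read in these poly(A) libraries. Relative to its mean, MT-RNR1 varied more than the mitochondrial mRNAs in both groups, and MT-RNR2 did so only in siCTRL. MT-RNR2 had 10599, 13105 and 11494 CPM in siCTRL and 13213, 12391 and 12736 CPM in siMatrin3 (log2 fold change 0.12, SE 0.0623, adjusted p = 0.245). MT-RNR1 had 1301, 2034 and 1674 CPM in siCTRL and 1417, 1683 and 1570.4 CPM in siMatrin3, with the lowest and the highest value both in siCTRL (log2 fold change -0.10, SE 0.126, adjusted p = 0.669). Neither was called, and the groups overlapped. Of 16 genes for ubiquinone synthesis and electron carriers, edgeR called none in either direction and 1 had an unadjusted p under 0.05, COQ7, a hydroxylase of ubiquinone synthesis (log2 fold change -0.15, SE 0.0545, adjusted p = 0.108). Of 17 genes for import and cristae, edgeR called none and 2 had an unadjusted p under 0.05, PHB1 (log2 fold change 0.11, SE 0.0374, adjusted p = 0.0842) and TOMM40 (log2 fold change 0.10, SE 0.0444, adjusted p = 0.186). Over all genes tested by edgeR, 4364 of 16786 had an unadjusted p under 0.05.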
